A study of Zea mays with 4 samples.

Results

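Auxin synthesis, auxin transport and the formation of axillary meristems in maize are represented here by 7 genes, followed in the female inflorescence (FI) and in the top internode (TI) of the maize stem. They were chosen by gene identifier and not by a cut on their level, though earlier results of these data were known. They are 7 of the 39179 genes in the FPKM table (fragments per kilobase of transcript per 1000000 mapped fragments). The members are vt2 (Zm00001d008700) and spi1 (Zm00001d044069) of auxin synthesis, pin1a (Zm00001d044812), pin1b (Zm00001d018024) and br2 (Zm00001d031871) of auxin transport, and the barren genes bif2 (Zm00001d031068) and ba1 (Zm00001d042989). FI and TI came from the same material, Puma hybrid plants grown in pots in a greenhouse, and were collected 60 days after sowing (DAS). Collection preceded pollination, and the ears had been bagged before their silks emerged. RNA-seq libraries were made from 2 replicates of each tissue, which the study's methods call biological, and neither tissue had been treated. Whether several plants were pooled in a library is not given in the sources used here.

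Auxin in maize is made from tryptophan in a pathway with 2 enzyme steps, the first by aminotransferases such as VT2 and the second by YUCCA flavin monooxygenases such as SPI1. Polar transport through PIN efflux carriers then gathers auxin where a new axillary meristem, and later a spikelet or branch, will arise. Plants that lack one of several of these genes form ears and tassels with few spikelets or no ear shoot at all, which gave the loci their names: vanishing tassel, sparse inflorescence, barren inflorescence and barren stalk.

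Counts in the transcript table added up to between 1455729 and 2431447 per library, and whole fragments recovered from the FPKM to between 2373386 and 3876892. TI replicate 2 stood apart from TI replicate 1. Of 15 inflorescence marker genes, 8 had counts, and their summed level was 452 and 355 counts per 1000000 (CPM) in FI, against 39.6 CPM in TI replicate 1 and 202 CPM in TI replicate 2. In TI replicate 1, 3 of the 8 (zag2, si1 and ub2) were at 0 counts, and none was in TI replicate 2. The floral MADS-box gene zag1 had 228 and 121 counts in FI, against 2 and 42 counts in TI replicates 1 and 2. The 4 stem wall markers with counts added up to 79.8 and 81.6 CPM in FI, against 123 and 117 CPM in TI, but did not agree in direction. Among them the lignin gene bm1 had 54 and 49 counts in FI, against 162 and 104 in TI, whereas cesa12, a secondary wall cellulose synthase gene, had 2 and 5 in FI, against 0 and 1 in TI. Another cellulose synthase gene, cesa10, was also higher in FI, with 52.2 and 51.2 CPM, against 24.2 and 41.2 CPM in TI, and bk2 overlapped. All 5 leaf markers with counts had higher CPM in both TI libraries, with a sum of 123 and 70.9 CPM in FI, against 586 and 187 CPM in TI. The differences of the members are therefore also given with each TI library left out.

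Of the 7 genes, 4 were measured at a level that allowed a test, a mean of at least 1 FPKM over the 4 libraries. For vt2, pin1a and pin1b each FI library had a higher FPKM than either TI library, with a ratio of means between 2.04 and 2.42. Such an order was also found in 33.0% of all genes tested, and the reverse order in 27.5%. The auxin transport gene br2 had nearly the same level in the 2 tissues. The barren genes and spi1 were at or near 0 in both. None of the 4 differences had an FDR under 0.05 in the fit across all 19531 genes (limma on log2(FPKM + 1)), in which 0 genes had one and 3524 had an unadjusted p under 0.05 (18.0%, made up of 8.80% with higher and 9.25% with lower FPKM in FI). The smallest p that an exact two-sided permutation test can reach for 1 gene with 2 libraries per tissue is 0.333, which vt2, pin1a and pin1b had.

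**Figure D1:**
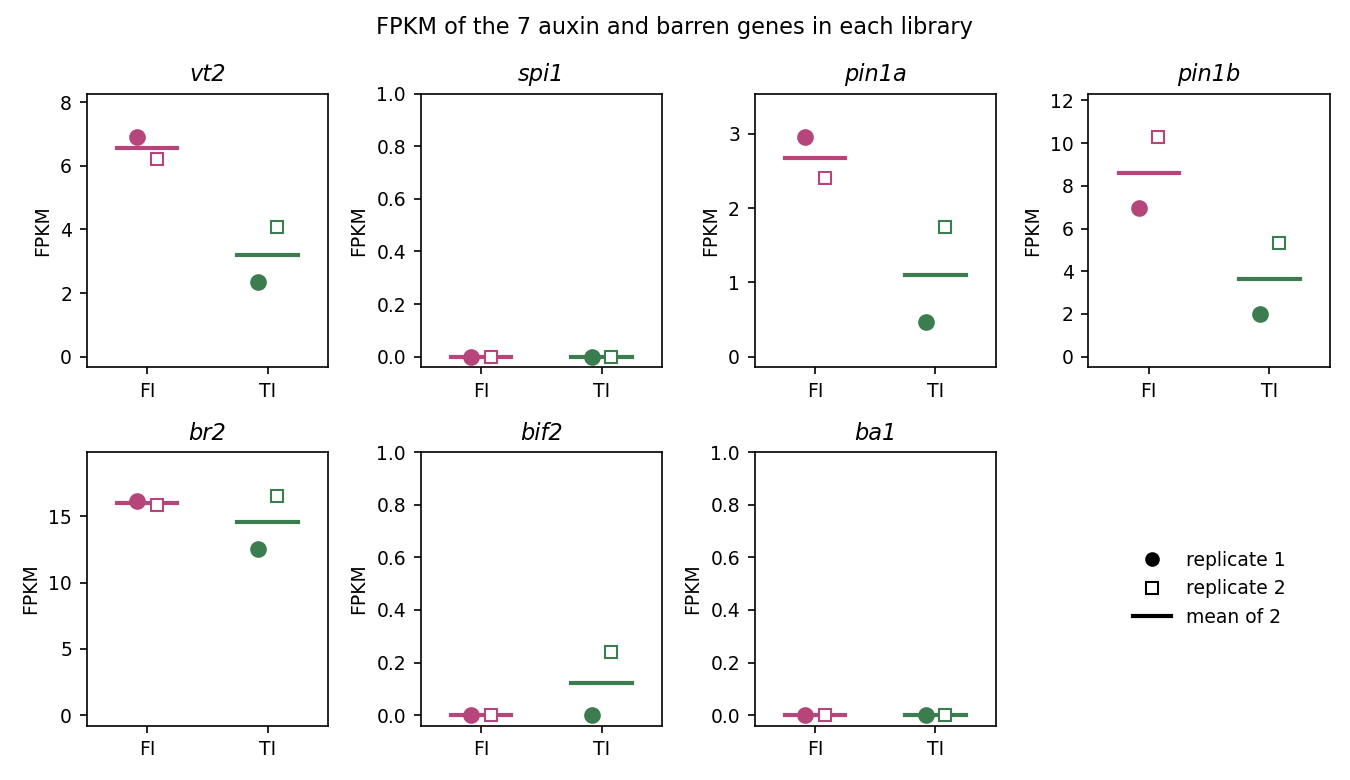
FPKM of each gene in the 2 FI libraries (left) and the 2 TI libraries (right), with replicate 1 as a filled circle, replicate 2 as an open square and the mean of 2 as a line; each panel has its own scale from 0. In vt2, pin1a and pin1b both FI points lie above both TI points and TI replicate 2 lies above TI replicate 1, br2 overlaps, and spi1, bif2 and ba1 lie at or near 0.

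The gene vt2 encodes the tryptophan aminotransferase of the first step of auxin synthesis. Its FPKM was 6.89 in FI replicate 1 and 6.21 in FI replicate 2, against 2.35 in TI replicate 1 and 4.06 in TI replicate 2. Tissues did not overlap, and the 2 FI libraries were closer to each other than the 2 TI libraries were. Mean FPKM was 6.55 ± 0.485 (SD, n = 2) in FI, against 3.21 ± 1.21 in TI, a ratio of 2.04. The log2FC of vt2, FI minus TI, was 0.87 (standard error, SE, 0.29, FDR = 0.270 by limma), and its unadjusted p was 0.0352 by limma. This is one of the 8.80% of genes with an unadjusted p under 0.05 and higher FPKM in FI, and 15.4% of genes tested had a larger log2FC than vt2. The smallest whole numbers of fragments that fit these FPKM are 77 and 62 in FI, against 20 and 28 in TI, and true numbers can be a multiple of them. Read as 20 fragments, the TI replicate 1 value has an exact Poisson 95% interval of 12.2 to 30.9 for counting error alone.

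The second enzyme gene, spi1, was listed at 0 FPKM in all 4 libraries. A count of 0 allows up to 3 fragments as a one-sided 95% limit (the exact two-sided interval reaches 3.69), which is 0.774 and 0.887 fragments per 1000000 in the FI libraries and 1.03 and 1.26 in the TI libraries. On the same scale vt2 had 19.9 and 18.3 fragments per 1000000 in FI, against 6.85 and 11.8 in TI. Transcript of the aminotransferase gene was thus found in each library, and that of this YUCCA gene was not detectable at this depth. Of the 2 synthesis genes that the gene table names, TAR3, a relative of vt2, had counts, with 1 count in FI replicate 1 and 0 in the other libraries.

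The gene pin1a encodes an auxin efflux carrier. Its FPKM was 2.95 and 2.40 in FI, against 0.470 in TI replicate 1 and 1.74 in TI replicate 2. FI was higher in every pair of libraries, and the higher TI library lay close to the lower FI library. Mean FPKM was 2.68 ± 0.390 (SD, n = 2) in FI, against 1.11 ± 0.899 in TI. The log2FC of pin1a was 0.87 (standard error 0.37, FDR = 0.291 by limma). It is the lowest of the 4 expressed genes, with 33 and 24 fragments in FI, against 4 and 12 in TI. The exact Poisson 95% intervals of the 2 TI values, 1.09 to 10.2 and 6.20 to 21.0 fragments, overlap.

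The second copy, pin1b, was more highly expressed than pin1a in each of the 4 libraries. Its FPKM was 6.95 and 10.3 in FI, against 1.99 in TI replicate 1 and 5.31 in TI replicate 2. Here the FI libraries differed too, and replicate 2 was the higher library in both tissues. Mean FPKM was 8.61 ± 2.35 (SD, n = 2) in FI, against 3.65 ± 2.35 in TI, a ratio of 2.36, and the SD within each tissue was smaller than the difference between the means. The log2FC of pin1b was 1.12 (standard error 0.45, FDR = 0.283 by limma), and 11.2% of genes tested had a larger one. The ratio of pin1b to pin1a FPKM was 2.35 and 4.28 in FI, against 4.24 and 3.05 in TI, so that this ratio overlapped between the tissues. How reads that match both copies were assigned is not given in the sources used here, and the split between these close relatives is uncertain to that extent.

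The gene br2 encodes an ABCB transporter (P-glycoprotein) that moves auxin in the stem, and plants without it are dwarfs with short lower internodes. It had the highest FPKM of the 7 genes in each library, with 16.1 and 15.9 in FI, against 12.6 in TI replicate 1 and 16.5 in TI replicate 2. Tissues overlapped, since TI replicate 2 lay above and TI replicate 1 below both FI libraries. Mean FPKM was 16.0 ± 0.165 (SD, n = 2) in FI, against 14.6 ± 2.81 in TI. The log2FC of br2 was 0.14 (standard error 0.23, FDR = 0.748 by limma), within the spread of the TI libraries. It changed sign to -0.045 without TI replicate 1. With 105 to 177 fragments in a library, this gene is also the best measured of the 4.

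Both barren genes act where axillary meristems are laid down. BIF2 is a protein kinase related to PINOID of Arabidopsis that can phosphorylate the PIN1a protein of maize. BA1 is a bHLH transcription factor without which axillary meristems do not form. FPKM of ba1 was listed at 0 in all 4 libraries. The same was true of bif2 in FI replicate 1, FI replicate 2 and TI replicate 1, while TI replicate 2 had 0.241 FPKM. A value above 0 in a single library does not show how many fragments it stands for, and it was higher than the FPKM of only 3.05% of the genes above 0 in that library. With limits between 0.774 and 1.26 fragments per 1000000 per library, neither gene was detectable in FI at this depth, and no difference between the tissues can be given.

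In FI, the order of levels was br2, pin1b, vt2, pin1a. FPKM of br2 was 2.32 and 1.55 times that of pin1b there, and vt2 was 2.33 and 2.58 times pin1a. The neighbours pin1b and vt2 did not differ beyond their spread, since pin1b was 1.01 times vt2 in FI replicate 1 and 1.66 times in FI replicate 2. In TI the same 2 genes changed places between libraries, with ratios of 0.848 and 1.31. The distance from br2 to the others was wider in TI, where br2 was 26.7 times pin1a in replicate 1 and 9.50 times in replicate 2, against 5.46 and 6.61 times in FI. Among genes above 0 in a library, br2 lay above 75.8% to 76.0% of them in FI and above 69.6% and 76.2% in TI, and pin1a above 30.4% to 34.0% in FI and above 11.2% and 24.0% in TI.

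All 4 expressed genes had higher FPKM in TI replicate 2 than in TI replicate 1. The ratio of replicate 2 to replicate 1 in TI was 3.70 for pin1a, 2.66 for pin1b, 1.73 for vt2 and 1.32 for br2, while the median over all genes tested was 1.06 and 57.7% of them were higher in TI replicate 2. Expressed as a percentage of the FI mean, TI replicate 1 had 17.6% of pin1a, 23.2% of pin1b and 35.9% of vt2. TI replicate 2 had 65.1%, 61.7% and 62.1% of the same 3 genes, in that order. The summed CPM of the 8 inflorescence markers differed in the same direction, with 9.81% of the FI mean in TI replicate 1 and 50.0% in TI replicate 2. A meristem gene, kn1, was the exception among the 8 markers, with 20 and 12 counts in FI, against 44 and 21 in TI. It held 24.2 of the 39.6 CPM summed in TI replicate 1 and 14.4 of the 202 CPM in TI replicate 2. In FI, zmm6 held 248 of 452 CPM in replicate 1 and 197 of 355 CPM in replicate 2, so the sums rest largely on single genes. The part of these markers in the levels of pin1a, pin1b and vt2 in TI replicate 2 was not tested. In whole tissues, fewer cells that express a gene and less RNA per cell cannot be told apart.

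**Figure D2:**
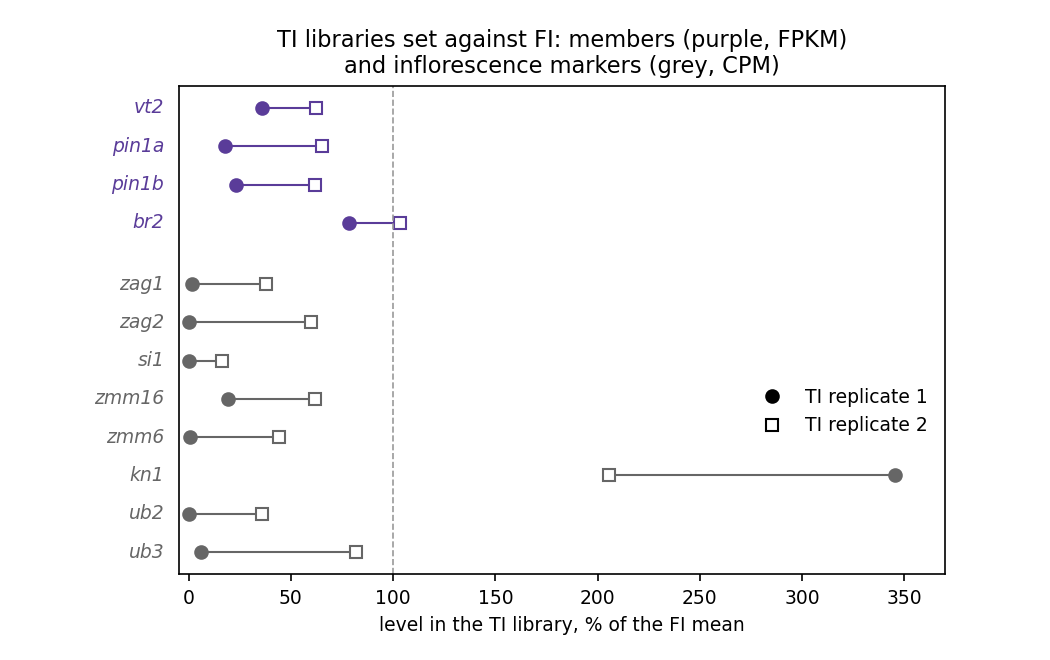
Level of each TI library as a percentage of the FI mean (dashed line at 100%), for the 4 expressed members on FPKM (purple) and the 8 inflorescence markers on CPM (grey); circles are TI replicate 1 and squares TI replicate 2. The members other than br2 lie between 17.6% and 35.9% in TI replicate 1 and between 61.7% and 65.1% in TI replicate 2, and 7 of the 8 markers are also higher in TI replicate 2; kn1 alone lies above 100% in both.

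The TI library that is kept sets the size of the difference. Without TI replicate 1, the log2FC was 0.57 for vt2, 0.42 for pin1a and 0.58 for pin1b, the FDR was between 0.318 and 0.462 by limma, and of all genes tested 8 had an FDR under 0.05, 0 of them with higher FPKM in FI. Without TI replicate 2, it was 1.17 for vt2, 1.32 for pin1a and 1.66 for pin1b, with FDR of 0.0304, 0.0251 and 0.0247 by limma. The single TI library is then taken to vary as the FI libraries do, and 17.5% of all genes tested had an FDR under 0.05 with higher FPKM in FI in that fit.

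**Figure D3:**
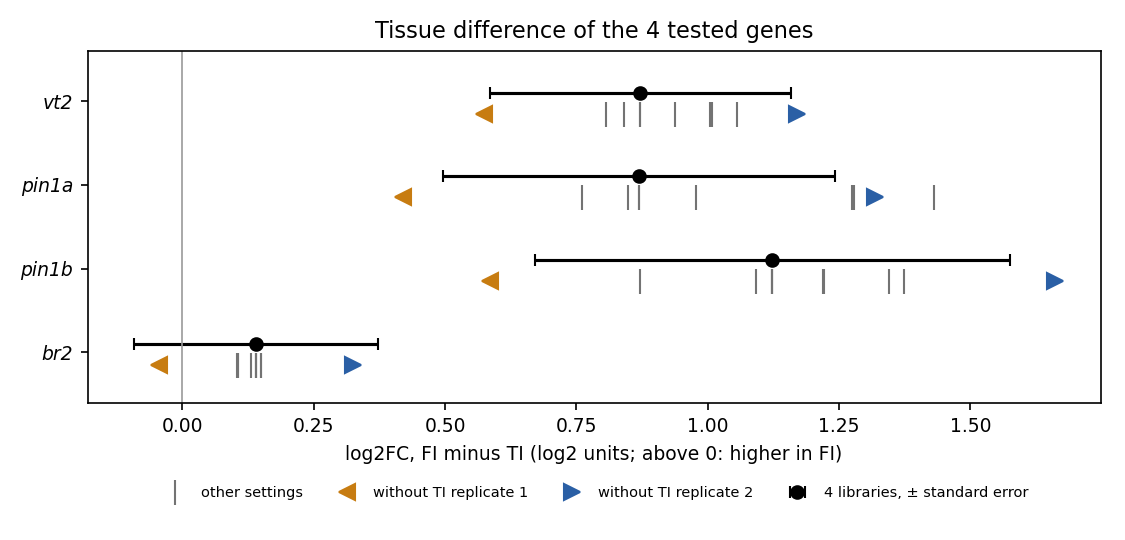
Difference between the tissues (log2FC, FI minus TI) of the 4 tested genes: black circles are the fit on 4 libraries with its standard error, triangles the fits without TI replicate 1 (orange) or TI replicate 2 (blue), and grey ticks the other settings. The values of vt2, pin1a and pin1b lie between 0.42 and 1.66, and br2 lies near 0 on either side.

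The count table, made with the earlier gene models, gave a second measurement of pin1a and br2, the members that could be paired with it by symbol and had counts. The gene model of pin1a had 43 and 26 counts in FI, against 3 in TI replicate 1 and 15 in TI replicate 2. Its 2 FI libraries lay above both TI libraries on this scale also, with 17.7 and 12.5 CPM in FI, against 1.65 and 10.3 CPM in TI. For pin1a this gave a log2FC of 1.36 with an SE of 0.79 and a quasi-likelihood FDR of 0.418 in edgeR. It was 0.55 without TI replicate 1, where 0.806% of all genes had an FDR under 0.05 with higher counts in FI. Without TI replicate 2 it was 3.12 with an FDR of 0.00716 by the same test, and 15.0% of all genes had one in that direction. The gene model of br2 had 228 and 170 counts in FI, against 159 and 147 in TI, of which all but 1 belonged to a single transcript. For br2 the log2FC was -0.14 with an SE of 0.22 and a quasi-likelihood FDR of 0.756 in edgeR, of opposite sign to that on FPKM, and neither was larger than its error.

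The profiles of the expressed genes were compared over the 4 libraries as log2(FPKM + 1) centred on the mean of each gene. On this scale the nearest pair was vt2 and pin1a, with a Euclidean distance of 0.223 (r = 0.98 over 4 libraries of 2 tissues). The farthest was pin1b and br2, with 1.16. The added 1 compresses low values such as the 0.470 FPKM of pin1a in TI replicate 1, so this ranking holds for this scale only. As a ratio of TI replicate 2 to TI replicate 1 in FPKM, pin1a (3.70) lay closer to pin1b (2.66) than to vt2 (1.73). Among 113 genes of the count table with a symbol of their own, gpm300 (154 and 94 counts in FI, against 15 and 61 in TI) and lox11 (85 and 57 in FI, against 12 and 30 in TI) had the profiles nearest to pin1a, at distances of 0.119 and 0.484 on centred log2 CPM. Those nearest to br2 were dhar4 and RAB2A, at 0.157 and 0.169. With 4 libraries these distances are a description.

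Other genes of the auxin pathway were taken from the count table by their names. Of 15479 genes tested by edgeR's quasi-likelihood test 0 had an FDR under 0.05 and 15.8% an unadjusted p under 0.05, made up of 6.11% with higher and 9.67% with lower counts in FI. Each FI library had a higher CPM than either TI library in 30.0% of genes, and a lower one in 26.5%. The median log2FC over all genes was -0.0015.

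Of 7 PIN genes named in the gene table, 5 had counts and 3 could be tested. All 3 (pin1a, PIN10a and PIN5c) had higher CPM in each FI library than in either TI library, with a median log2FC of 2.06. By the quasi-likelihood test 1 had an unadjusted p under 0.05. The 3 genes had 2 to 4 counts in TI replicate 1, under the filter's minimum count of 10, so they entered the test with the help of FI. PIN10a, an efflux carrier gene, had 146 and 91 counts in FI, against 2 in TI replicate 1 and 34 in TI replicate 2. PIN10a had a log2FC of 2.11 (SE 1.03, quasi-likelihood FDR = 0.368 in edgeR), which was 1.15 with TI replicate 1 left out and 5.46 with TI replicate 2 left out. PIN5c had 45 and 29 counts in FI, against 4 and 8 in TI. PIN5 proteins of Arabidopsis act at the endoplasmic reticulum rather than the plasma membrane. The log2FC of PIN5c was 2.06 (SE 0.57, quasi-likelihood FDR = 0.258 in edgeR), with 1.55 and 2.82 without TI replicates 1 and 2. Its FDR was 0.0352 by edgeR's exact test, which called 189 of 15479 genes higher in FI at an FDR under 0.05.

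The auxin influx carrier gene aux1 had 28 and 13 counts in FI, against 0 and 7 in TI. Its log2FC of 1.94 (SE 1.17, quasi-likelihood FDR = 0.429 in edgeR) was 0.89 without TI replicate 1. With the other TI library left out, no counts remain in TI to set a fold against. Together with pin1a, PIN10a and PIN5c this makes 4 carrier genes with FI above TI on counts, an order found in 30.0% of all genes tested. Each had between 0 and 4 counts in TI replicate 1, under the filter's minimum count of 10. None of the 4 would thus have entered the test on its TI libraries alone, and their shared order is no support for a pattern among carriers. The tissues overlapped in br2, the other carrier tested. The list that holds aux1 and br2 was narrowed after its values were seen. Before that, of its 10 genes tested, FI was above TI in 4 and below in 2, and the tissues overlapped in 4.

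Aux/IAA proteins hold auxin response genes in check and are degraded when auxin is present. Of 18 such genes in the gene table, 16 of them named AUX with a number, 8 could be tested. Their log2FC was positive in 4 and negative in 4 (median 0.02). The list as planned had 1 gene tested, BIF4, with a log2FC of -2.05. The others tested were moved there from the carriers after their values were seen. By the quasi-likelihood test 1 had an unadjusted p under 0.05 with higher and 2 with lower counts in FI. Over all genes tested those shares were 6.11% and 9.67%. AUX14 had 173 and 187 counts in FI, against 12 in TI replicate 1 and 76 in TI replicate 2, with a log2FC of 1.45 (quasi-likelihood FDR = 0.418 in edgeR) that was 0.61 with TI replicate 1 left out and 3.56 with TI replicate 2 left out. AUX35 had 56 and 32 counts in FI, against 15 and 12 in TI, and a log2FC of 1.17. AUX3, with 80 and 49 counts in FI, against 164 and 65 in TI, had a log2FC of -1.31, and -0.66 without TI replicate 1.

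BIF4 and BIF1 are Aux/IAA genes in which mutations that stabilize the protein give barren inflorescences. BIF4 had 4 and 7 counts in FI, against 19 and 14 in TI. Each TI library had the higher level, opposite to vt2, pin1a and pin1b, and TI replicate 2 was not the higher of the 2. The log2FC of BIF4 was -2.05 (SE 0.58, quasi-likelihood FDR = 0.260 in edgeR). By the exact test, which called 530 of 15479 genes lower in FI at an FDR under 0.05, its FDR was 0.0441. Fits that left out 1 library gave log2FC of -2.57 to -1.63. The 4 and 3 counts of BIF1 in FI, against 0 and 2 in TI, did not allow a test. Among the barren loci, baf1 had 2 counts in TI replicate 2 and 0 in each other library.

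Auxin response factors bind the promoters of auxin response genes. Of 21 in the gene table, 11 could be tested, with a median log2FC of -0.30. In 6 each FI library was lower than either TI library and in 1 higher, against 26.5% and 30.0% of all genes tested. The list as planned also held the entry spelled arf1, which was later left out. It had 12 genes tested, 6 with FI below and 2 with FI above TI, and a median log2FC of -0.20. By the quasi-likelihood test 3 had an unadjusted p under 0.05 with lower and 1 with higher counts in FI. Over all genes tested those shares were 9.67% and 6.11%. ARF11 had 215 and 223 counts in FI, against 491 and 304 in TI. This gave ARF11 a log2FC of -1.35 with an SE of 0.24 and a quasi-likelihood FDR of 0.208 in edgeR. By the exact test, which called 530 of 15479 genes lower in FI at an FDR under 0.05, the FDR of ARF11 was 0.0119. Fits that left out 1 library gave log2FC of -1.50 to -1.10, with an FDR of 0.803 when FI replicate 1, 0.752 when FI replicate 2, 0.0343 when TI replicate 1 and 0.000404 when TI replicate 2 was left out. In the last 2 of these fits 275 of 16739 and 1505 of 17106 genes had an FDR under 0.05 with lower counts in FI. ARF23 had 26 and 18 counts in FI, against 39 and 26 in TI, and a log2FC of -1.07. ARF12 went the other way, with 40 and 52 counts in FI, against 4 in TI replicate 1 and 14 in TI replicate 2. For ARF12 the log2FC of 1.80 was 1.09 with TI replicate 1 left out and 3.16 with TI replicate 2 left out. ARF10 had 230 and 248 counts in FI, against 127 and 139 in TI, and a log2FC of 0.33, with overlap of the tissues on CPM.

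**Figure D4:**
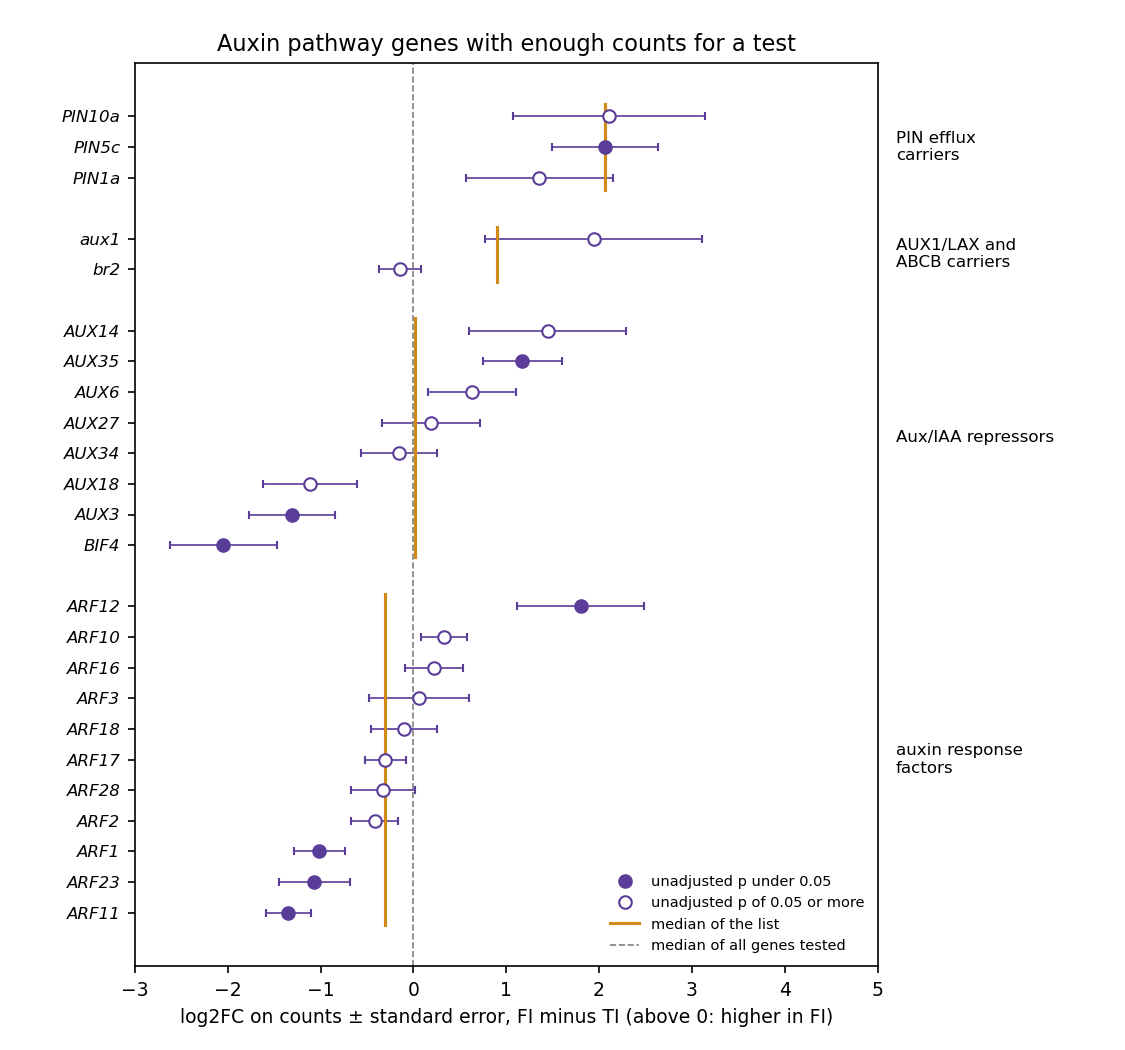
The log2FC on counts (FI minus TI, with its standard error) of auxin pathway genes with enough counts for a test, by list; filled circles have an unadjusted p under 0.05, the orange line is the median of a list and the dashed line the median of all genes tested. The 3 PIN genes lie between 1.36 and 2.11, Aux/IAA genes lie on both sides of 0, and the median of the auxin response factors is -0.30.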

How the data were processed

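The authors trimmed the read pairs (Trimmomatic) before alignment with TopHat2 2.0.13. They deposited raw counts per transcript under version 3 names. The submitters' processing notes name B73 RefGen_v3 and the methods B73 RefGen_v4, and the counting tool is not given in the sources used here. The deposited FPKM values per gene carry version 4 identifiers and came from CLC Genomics Workbench on B73 RefGen_v4. The counts name FI floral stem, which the labels do not, and it was taken as FI because the labels hold no other floral tissue. Another file and the last columns of the FPKM table hold the authors' own fold changes and p-values, which were not used.

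For genes averaging at least 1 FPKM, limma 3.58.1 was run on log2(FPKM + 1), a scale that understates the change of a gene with low FPKM. Counts were summed per gene model, filtered by filterByExpr (minimum count 10, minimum total 15), normalized by TMM and tested by edgeR 4.0.16 (quasi-likelihood test), with DESeq2 1.42.0 as an alternative, in R 4.3.3. FDR are Benjamini-Hochberg values over all genes tested, and a positive log2FC is higher in FI. Fragments are the smallest whole numbers that fit the FPKM of a gene (tolerance 0.004), found for 24149 of 24149 genes with a value in more than 1 library. On simulated counts with a common dispersion for all genes, each fit called 200 of 200 genes that were changed by a log2FC of 4. That change is larger than those of the members, so it does not show how well changes of their size are found. Recovery on simulated FPKM was exact for 93.56% of 2919 genes, and for 100% up to a common divisor. Intervals and limits of 3 counts cover counting error only.

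The methods call the replicates biological, and whether each came from separate plants is not given in the sources used here. Members and lists were chosen with earlier results of these data known. All 7 members are named, and of each list the 2 genes with the largest and the 2 with the lowest log2FC. The gene table (Zm-B73-REFERENCE-NAM-5.0) does not hold version 4 identifiers. Lists, markers and the search for like profiles were therefore run on counts and not on FPKM as planned, and 5 members were found there by symbol, of which 2 had counts. Genes called AUX with a number were moved from the carriers to the Aux/IAA list after their values were seen; before that the 10 carriers tested had a median log2FC of 0.41. Then aux2 (also saur3), abp1 and the entry spelled arf1, which is not ARF1, were left out, the last because its name also stands for an ADP-ribosylation factor. The GH3 and SAUR list had 0 genes with enough counts for a test. Sequences and coordinates were not analysed here. Plots were drawn with Python 3.11.15.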

Additional observations from a re-analysis of the deposited data

How the results depend on the processing

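On FPKM, the log2FC of vt2, pin1a and pin1b was between 0.84 and 1.43 over the alternatives that kept all 4 libraries. Their sign is fixed by the lack of overlap when a library is left out. The log2FC of vt2 was between 0.57 and 1.17 with each library left out, that of pin1a between 0.42 and 1.32, that of pin1b between 0.58 and 1.66, and that of br2 between -0.045 and 0.33. The FDR of vt2, pin1a and pin1b was under 0.05 only without TI replicate 2, as was that of pin1a on counts (log2FC 3.12). For br2 the log2FC was -0.045 without TI replicate 1, and its sign differs between FPKM and counts. A filter of 5 FPKM left out vt2 and pin1a.

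Over all genes, 0 had an FDR under 0.05 on FPKM by limma or on counts by edgeR's quasi-likelihood test. With each library left out, between 0 and 5013 genes had one on FPKM and between 0 and 4072 on counts. The highest counts came without TI replicate 2. On recovered fragments the quasi-likelihood test gave 0 genes and the exact test 903, and on counts the exact test gave 719, DESeq2 324 and the absence of a filter on low counts 477. The cause was not tested. The replicate numbers share no stated batch. Deviations of same-numbered libraries correlated at 0.174 on FPKM and 0.159 on counts, with 2 pairs only, and with the replicate block 0 genes had an FDR under 0.05 on either table. With 2 replicate numbers in each tissue the block cannot move the log2FC on FPKM (vt2 0.87, pin1a 0.87, pin1b 1.12, br2 0.14). With it the FDR was between 0.250 and 0.760 by limma. The unadjusted p by limma fell for pin1b (0.0190, against 0.0643 without the block). It rose for vt2 (0.0501, against 0.0352), pin1a (0.0905, against 0.0762) and br2 (0.601, against 0.578). On counts the block gave 1.52 for pin1a and -0.15 for br2. At this depth spi1 and ba1 were not detectable, bif2 had a value in 1 library, and pin1a rests on 4 fragments in TI replicate 1.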
